A study of Homo sapiens with 2 samples.

Results

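The genes of nuclear transport were read out in this experiment by where IGF2BP3 was crosslinked to their RNA. The set holds the protein-coding genes of GENCODE 44 whose symbol starts with NUP, KPNA or KPNB and a digit, or with IPO or XPO and a digit or T, together with RANBP2, TPR, POM121, NDC1, RAN and CSE1L. This rule found 50 of 20046 protein-coding genes, and it used names only and no measured value. The data were 2 peak lists of IGF2BP3 LACE-seq from OE-19, an established cell line of adenocarcinoma of the esophagogastric junction, labelled replicate 1 and replicate 2 of 1 group with no treatment given. In LACE-seq, cells are crosslinked with UV light, the protein is immunoprecipitated, and the cDNA ends at its binding sites are amplified and sequenced. The study calls its replicates biological, without saying whether separate cultures were used. The lists held neither a control library nor RNA levels, so peaks were described and not tested between conditions.

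The nuclear pore complex is a ring of nucleoporins that spans the nuclear envelope. A Y-shaped scaffold and an inner ring hold the pore open, membrane nucleoporins anchor it, and nucleoporins rich in phenylalanine-glycine (FG) repeats fill its channel. Importins carry proteins with a nuclear localization signal inward, exportins carry proteins and some RNAs outward, and the small GTPase Ran sets the direction. IGF2BP3 is an oncofetal RNA-binding protein that reads m6A-modified mRNA and is known for stabilizing its targets.

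A peak was given to a gene when at least 1 bp of it lay on an annotated exon. The peaks have no strand, so where exons of a neighbouring gene lie under the same peak both genes share it. The lists held 21142 and 20799 peaks, with a median of 22 stacked reads at the summit in both. Of the epithelial markers KRT8, KRT18, KRT19, EPCAM and CDH1, 5 of 5 carried an exonic peak in both replicates. Of VIM, PTPRC, COL1A1 and PECAM1, markers of other cell types, 0 of 4 did, although COL1A1 had 1 peak in replicate 2, and a peak does not measure an RNA level.

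IGF2BP3 peaks lay on most of the nuclear transport genes. In replicate 1, 37 of 50 genes carried an exonic peak (74%, Wilson 95% interval 60.4 to 84.1), against 37.3% of all protein-coding genes. In replicate 2 it was 34 of 50 (68%, 54.2 to 79.2), against 39.0% of all. An exonic peak in both replicates was found in 32 of 50 genes (64%, 50.1 to 75.9), beside 31.6% of all protein-coding genes. Peaks that also overlapped each other between the replicates were found in 27 of 50 (54%, 40.4 to 67.0), beside 28.0%. The background includes genes that are silent in these cells and shorter genes. The median nuclear transport gene had 7580.5 bp of exonic sequence and 22.5 exons in its canonical transcript, against 4416 bp and 8 exons over all protein-coding genes. The part of gene length and of RNA level in these shares was not tested.

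Several of these RNAs carried many peaks. At least 5 exonic peaks were found on 14 of 50 genes in replicate 1 (28%, beside 4.86% of all genes) and on 7 of 50 in replicate 2 (14%, beside 4.54%). The number of peaks per gene in replicate 1 followed that in replicate 2 (Spearman's rho 0.852 across the 50 genes, a description in which both counts share gene length and RNA level). It followed the exonic length less closely, with a rho of 0.397 in replicate 1 and 0.281 in replicate 2. The plot of peaks per gene shows that the count was uneven within every class of transport factor with several genes.

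**Figure D1:**
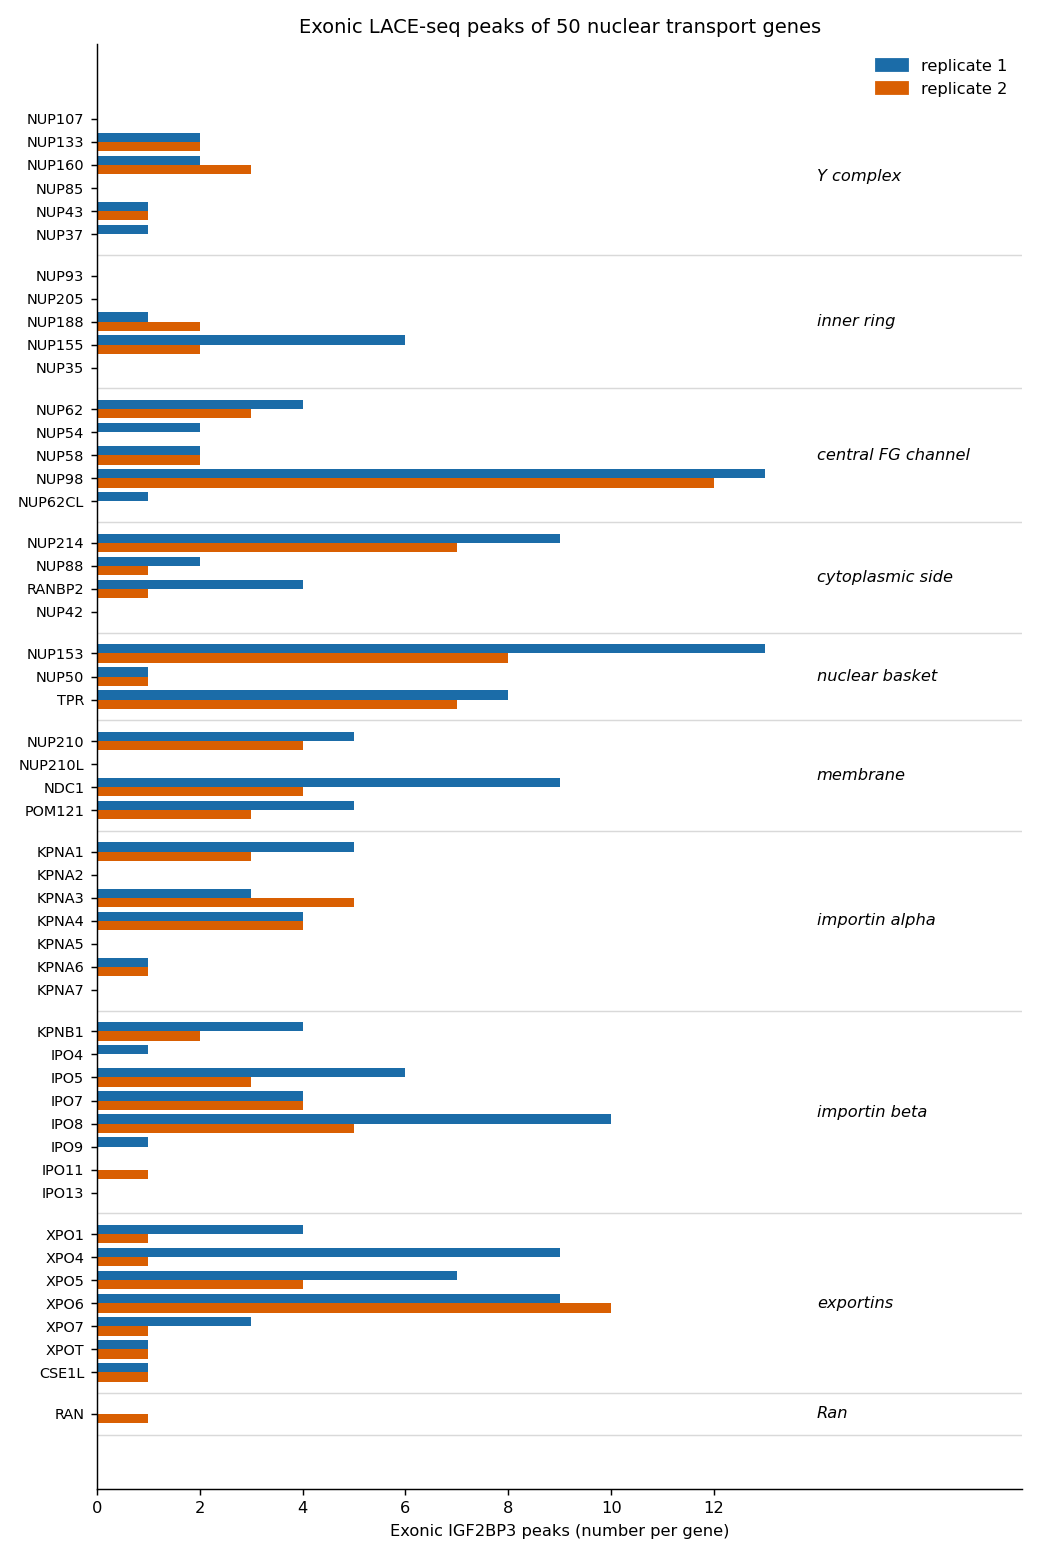
Number of exonic IGF2BP3 peaks (x axis) on each of the 50 nuclear transport genes (rows, grouped by role), with replicate 1 in blue and replicate 2 in orange. NUP98 and NUP153 reach 13 peaks in replicate 1, XPO6 reaches 10 in replicate 2, and 11 genes have no bar in either replicate.

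To show what lay at the summits, each overlapping pair of peaks was searched for GGAC, the core of the m6A consensus, and for TGGAC, which contains it. The search read the strand of the gene in a window that extended 50 nt up- and downstream from the summit base. A GGAC shared by both windows of a pair was found in 11 of the 82 pairs searched (13.4%, 7.66 to 22.4), in 8 genes, beside 15.5% of the pairs of all protein-coding genes. XPO7 was not searched, and 4 of the 11 were TGGAC. Pairs were ranked by the lower of their percentiles of fold in the 2 lists, and the pair that ranks first is called the best. The best such pair of each of the 8 genes is printed below as the stretch of 30 nt around the motif, from the hg38 genome, 5′ to 3′ on the strand of the gene (written as DNA), with GGAC or TGGAC in capitals.
IPO8, 5′ UTR, chr12:30695809-30695838, minus strand: ggggaaaaagggaGGACagggggcgcggag
NUP88, coding sequence, chr17:5419619-5419648, minus strand: ggcggccgccgagGGACcggtgggcgacgg
TPR, 5′ UTR, chr1:186375186-186375215, minus strand: tgccgctgagggTGGACtcgatttcccagg
NUP210, intron, chr3:13327503-13327532, minus strand: tttgctcagcagaGGACatggattacgttt
NUP153, 5′ UTR, chr6:17706841-17706870, minus strand: gcggaggctgcagGGACgacgacgacgacg
NUP98, coding sequence, chr11:3699308-3699337, minus strand: tggagcctgacaTGGACactatgtgaagcc
XPO6, intron, chr16:28125904-28125933, minus strand: tgtgtggcttgcTGGACcagctgttatctg
NUP214, exon of a non-coding transcript, chr9:131230531-131230560, plus strand: gtcgtgtgtattgGGACttacagcaggggg

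These stretches are descriptions of the sequence under the peaks and were not tested as binding sites. Over all exonic peaks of the set, GGAC stood in 23.2% of the windows in replicate 1 (38 of 164) and 19.8% in replicate 2 (22 of 111). Over all protein-coding genes the shares were 29.5% and 32.5%. TGGAC stood in 9.15% and 9.01% of the windows of the set, and in 10.1% and 10.0% of all windows. The windows of the set were poorer in GC, with a median of 42.6% and 48.5% against 50.5% and 57.4% over all genes, and the part of base composition in the GGAC shares was not tested.

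Among the nucleoporins of the channel, NUP98 stood out by its number of peaks. NUP98 (chr11:3671083-3797792, minus strand) encodes a precursor that is cut into Nup98, an FG nucleoporin, and Nup96, a subunit of the Y-shaped scaffold. It carried 13 peaks in replicate 1 and 12 in replicate 2, and 10 of each overlapped one another. The overlapping peaks started in exon 3 and were spread to exons 32 and 33 of the 33 exons of the canonical transcript, as the transcript maps show. Fold enrichment over the local background of the same library, as the peak caller gave it, had its lowest and highest values at 6.69 and 11.1 in replicate 1, and at 6.06 and 11.5 in replicate 2. The best pair lay in the coding sequence of exon 30, with a fold of 11.1 in each replicate and 47 and 34 reads at the summit. In replicate 2 the pair of exon 20 was higher, at 11.5 (9.36 in replicate 1). The last pair ran over the end of the coding sequence into the 3′ UTR, with folds of 6.85 and 8.20.

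NUP62, which forms the core of the central channel with NUP54 and NUP58, carried 4 peaks in replicate 1 and 3 in replicate 2, and all 7 overlapped the other list. Its deepest peaks lay in the coding sequence, where up to 74 and 90 reads were stacked, at folds of 5.34 and 6.85. These deepest peaks also lay on an exon of another protein-coding gene, and the 5′ UTR pair lay on exons of ATF5 and IL4I1. The 3′ UTR pair of NUP62 had low folds, 3.92 and 2.77. NUP58 had 2 peaks in each list, of which 1 pair overlapped, in the 5′ UTR (7.43 and 8.87). NUP54 had 2 peaks and NUP62CL, a relative of NUP62, had 1, all in replicate 1 only. The channel nucleoporins therefore divided into 3 genes with overlapping peaks and 2 with peaks in 1 list. Among all protein-coding genes, 28.0% had overlapping peaks and 5.68% had a peak in replicate 1 only.

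**Figure D2:**
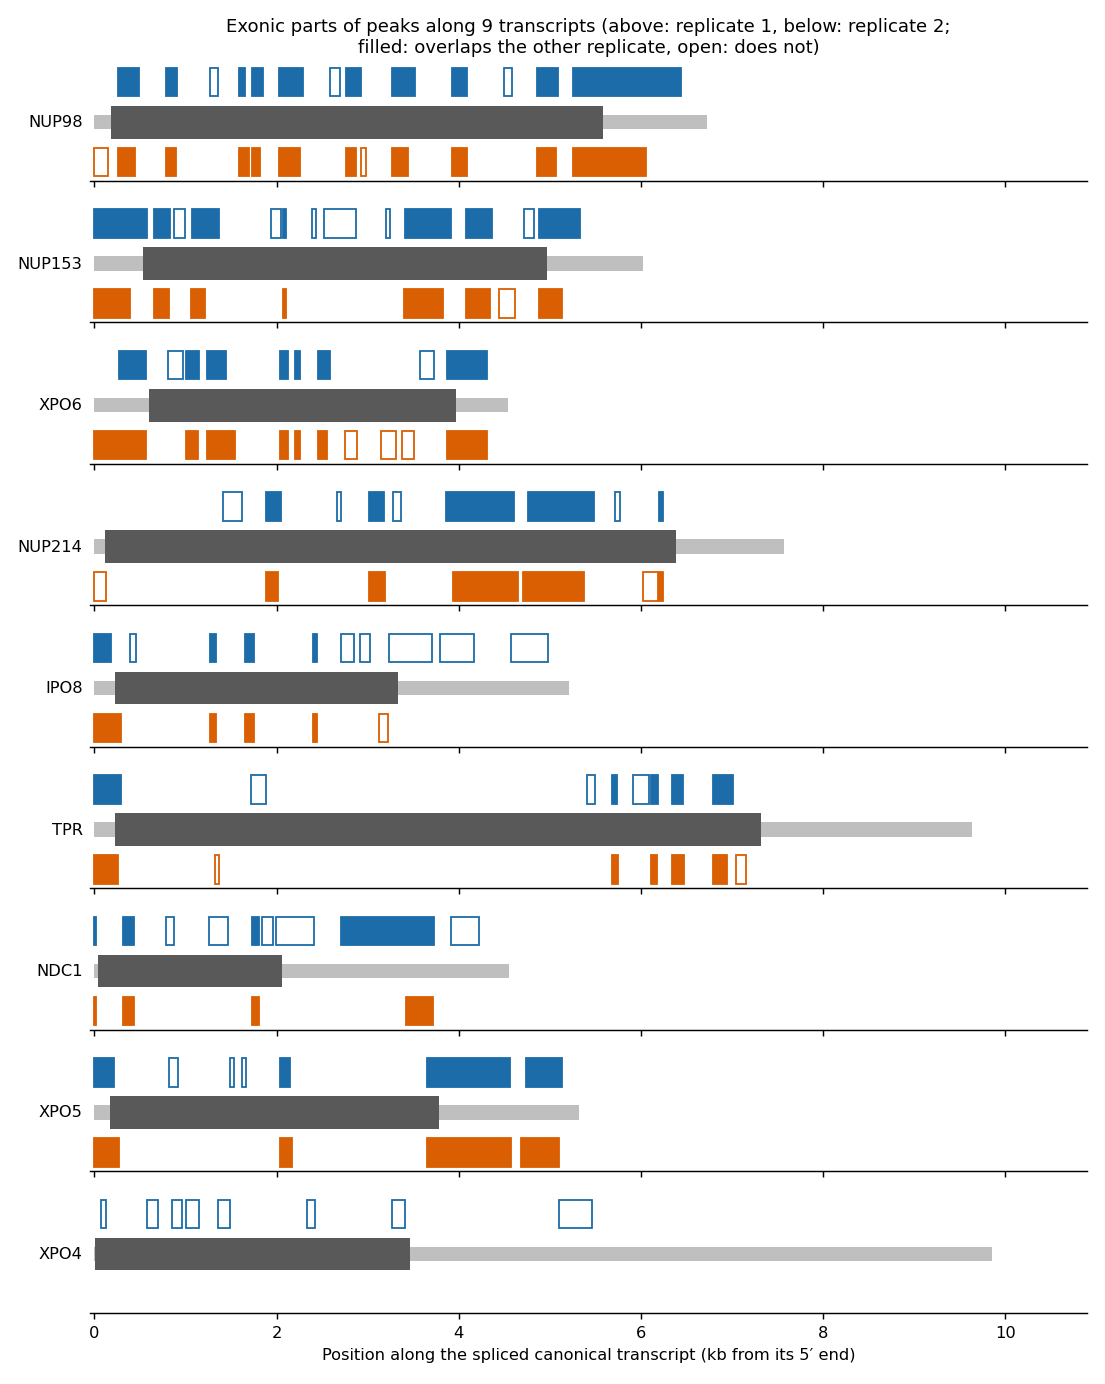
Exonic parts of the peaks along the spliced canonical transcripts (x axis, kb from the 5′ end) of the 9 genes with at least 10 peaks over both lists, a choice made after the counts were known. The thin grey bar is the transcript and the thick part its coding sequence, replicate 1 is drawn above in blue and replicate 2 below in orange, and filled boxes overlap a peak of the other replicate. NUP98 has filled boxes from end to end, while every XPO4 box is open, and 1 XPO4 peak of each replicate touches no exon of the canonical transcript and is not drawn.

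On the nuclear basket, the filaments that reach into the nucleus, NUP153 and TPR carried most of the peaks. NUP153 (chr6:17615035-17706925, minus strand), an FG nucleoporin that docks import and export complexes, had 13 peaks in replicate 1 and 8 in replicate 2, and 7 of each overlapped. Its best pair covered the 5′ UTR of exon 1, with folds of 8.27 in replicate 1 and 13.3 in replicate 2 and 16 and 31 reads at the summit. The antisense gene NUP153-AS1 has an exon under both of these peaks, and without strand the reads of both genes cannot be told apart. The other 6 overlapping pairs lay between exons 2 and 22, and those in exons 18 and 19, of 885 and 357 nt, had folds of 6.70 and 7.04, and of 7.02 and 7.22.

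TPR (chr1:186311652-186375693, minus strand) encodes the coiled-coil backbone of the basket. It had 8 and 7 peaks, of which 5 in each list overlapped. The best pair lay on exon 1 at folds of 8.38 and 12.8. Both summits lay before the coding start of the canonical transcript. The summit of replicate 1 was classed as coding sequence through another transcript, and that of replicate 2 as 5′ UTR. The 4 other overlapping pairs gathered between exons 38 and 48 of the 51 exons, with folds from 4.97 to 9.32. NUP50, a basket protein that helps to release cargo from importin, had 1 peak in each list that did not overlap, in the 3′ UTR in replicate 1 (5.38) and in the 5′ UTR in replicate 2 (6.69).

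The cytoplasmic side of the pore, where export complexes are taken apart, was led by NUP214. It carried 9 and 7 peaks, with 5 overlapping pairs. The best pair had its summits in the intron before exon 13, 1 bp apart, at folds of 9.53 and 9.56. A further 2 of its pairs lay side by side in exon 29, a coding exon of 1800 nt. NUP88, the partner of NUP214, had 1 overlapping pair in the coding part of exon 1 (9.25 and 10.8), which also lay on an exon of the oppositely transcribed RPAIN. RANBP2, the large SUMO ligase of the cytoplasmic filaments, had 4 peaks in replicate 1 at folds of 6.09 to 7.50 and 1 in replicate 2 at 5.39, and none overlapped. The summit sequence of each RANBP2 peak, read as 31 bases, occurred once in the genome.

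The membrane nucleoporins NDC1, NUP210 and POM121 each had overlapping peaks, and NUP210L had none. NDC1, which anchors the pore, carried 9 peaks in replicate 1 and 4 in replicate 2, and all 4 of the latter overlapped. Its best pair spanned the border of exon 4, at folds of 12.3 and 9.45. NUP210 had 5 and 4 peaks, and its best pair had both summits in an intron before exon 32, 1 bp apart (8.33 and 9.78). POM121 has a near-identical copy, POM121C, and its 5 and 3 peaks are less certain. Its 2 overlapping pairs lay in the coding sequence of exon 11 (7.15 and 7.23) and in the 3′ UTR of a transcript other than the canonical one (3.57 and 3.65). The 31 bases at the summit occurred once in the genome for all 5 peaks of replicate 1, and 2 or 3 times for all 3 of replicate 2.

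Both rings of the scaffold held genes with no peak. In the Y complex, NUP133, NUP160 and NUP43 had 1 overlapping pair each, NUP37 had 1 peak in replicate 1, and NUP107 and NUP85 had none. NUP160 had the smallest ratio of folds between replicates among the best pairs, with 12.6 in replicate 1 and 7.04 in replicate 2, in the 3′ UTR. Both NUP43 peaks had their summits outside the gene, on the side of PCMT1, which runs the other way. In the inner ring, NUP155 carried 6 and 2 peaks and NUP188 carried 1 and 2, with 1 overlapping pair each. NUP93, NUP205 and NUP35 carried none in either list, although the canonical transcript of NUP205 has 43 exons.

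Among the importins α, the adaptors that bind nuclear localization signals, 3 of 7 had overlapping peaks and 3 of 7 had no exonic peak in either list. The same shares of all protein-coding genes were 28.0% and 55.3%. KPNA4 had 4 peaks in each list and all overlapped, with the best pair on an exon of a non-coding transcript at exon 11 (9.98 and 11.3). KPNA3 had 3 and 5 peaks, with 4 overlapping pairs in its 3′ UTR and at exons 9 and 12. KPNA1 had 5 and 3, and its best pair showed the largest ratio between replicates, with 6.71 in replicate 1 and 11.9 in replicate 2. That pair had its summits just outside the first exon, and a lncRNA gene of the other strand has an exon there. The other overlapping pairs of KPNA1, in its 3′ UTR, lay on an exon of WDR5B-DT, also a lncRNA gene of the other strand. Without strand, the reads of KPNA1 and of these lncRNA genes cannot be told apart. KPNA6 had 1 peak in each list that did not overlap. KPNA2, KPNA5 and KPNA7 had no exonic peak in either replicate.

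The importins of the β family, which carry cargo through the channel, held the best pair of the whole set, that of IPO8. In replicate 2 alone, single peaks of IPO7, NUP214, XPO6 and NUP153 had higher folds. IPO8 (chr12:30628988-30695869, minus strand) had a fold of 13.5 in replicate 1 and 13.2 in replicate 2 over its 5′ UTR, with 28 and 27 reads at summits 7 bp apart. The replicate 1 peak of this pair also lay on an exon of a lncRNA gene of the other strand, and the reads have no strand. IPO8 had 10 peaks in replicate 1 and 5 in replicate 2, of which 4 in each overlapped, and its 3 peaks in the last exon were found in replicate 1 only. KPNB1 (chr17:47649476-47685505, plus strand), the importin β1 that pairs with importin α, had folds of 11.6 and 12.8 over its 5′ UTR and 6.04 and 6.15 over its 3′ UTR. Both replicates placed peaks at both ends of KPNB1, and its 2 other peaks were in replicate 1 only. The 3′ UTR pair of KPNB1 also lay on an exon of a lncRNA gene of the other strand.

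IPO7 had its best pair at exon 13, which both peaks covered whole, with summits in the intron and folds of 9.49 and 16.4. The snoRNA gene SNORA23 lies under the same pair, so the reads of the snoRNA and of IPO7 cannot be told apart there. A second overlapping pair of IPO7 lay at exon 5. IPO5 had 6 and 3 peaks with 3 overlapping pairs, the best of them in the last exon, 29, at 8.22 and 11.7. IPO4 and IPO9 had 1 peak each, in replicate 1 only, at folds of 5.10 and 6.04. IPO11 had 1 in replicate 2 only, outside the gene on the side of DIMT1. IPO13 had none.

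All 7 exportins carried a peak in both replicates, and 5 of 7 had overlapping peaks, beside 31.6% and 28.0% of all protein-coding genes. XPO6 (chr16:28097976-28211965, minus strand), the exportin of profilin and actin, had 9 and 10 peaks with 7 overlapping pairs. Its best pair lay in the coding sequence of exon 7 (11.6 and 13.9, with 27 and 32 reads), and others lay in the 5′ UTR (8.91 and 12.1), at exon 5 (11.3 and 13.9), exon 11 (11.8 and 11.3) and exon 15 (13.4 and 9.58), and in the 3′ UTR (11.1 and 11.0). XPO1, the main exportin of proteins with a leucine-rich export signal, had 1 overlapping pair over the 5′ UTR, at folds of 10.1 and 9.72 with 46 and 31 reads. The 3 further XPO1 peaks were in replicate 1 only.

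XPO5, the exportin of pre-miRNAs, had 7 and 4 peaks, and all 4 of replicate 2 overlapped. The pairs lay in the 5′ UTR (7.10 and 11.2), at exon 18 (5.95 and 6.10) and at 2 places in the last exon. The folds in the last exon were low, 3.03 and 4.23 for 1 pair and 3.62 and 3.91 for the other. The replicate 2 peak in the 5′ UTR also lay on an exon of POLH, which runs the other way. XPOT, the exportin of tRNAs, had 1 pair in the 5′ UTR (8.17 and 12.4), but the summit of replicate 1 held 31 bases that occur 4 times in the genome. XPO7 had 3 peaks in replicate 1 and 1 in replicate 2, in its last exon. CSE1L, which returns importin α to the cytoplasm, had 1 peak in each list at different places. XPO4 had 9 peaks in replicate 1 and 1 in replicate 2, and none overlapped. Summits of the set in peaks that overlapped none of the other list had a median GC content of 36.6% in replicate 1 and 61.4% in replicate 2. For all protein-coding genes it was 43.6% and 61.4%. The XPO4 summits are among those of the set, with 23.8% to 44.6% in replicate 1 and 70.3% for the 1 in replicate 2. The part of GC content in the lack of overlap was not tested.

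RAN, the GTPase itself, had no peak in replicate 1 and 1 in replicate 2, at a fold of 6.80. That peak reached exon 2 of the canonical transcript, but its summit lay in the 5′ UTR of another transcript. The summit bases occur once in the genome. Of the 24 other genes of transport, 12 carried an exonic peak in both replicates (50%, beside the same 31.6% of all genes). All 12, among them SEH1L, AHCTF1, TNPO3 and RANGAP1, had overlapping peaks (50%, beside 28.0% of all genes). AAAS, RAE1, RANBP17, NXT1, RANGRF and SNUPN had no exonic peak in either list. RANGAP1, the GTPase-activating protein of Ran, had 5 and 4 peaks, reaching folds of 13.5 in each list. AHCTF1, a nucleoporin that seeds pore assembly, had 9 and 6, reaching 11.5 and 17.7.

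Across the set, 11 of 50 genes had no exonic peak in either replicate (22%, beside 55.3% of all genes), namely IPO13, KPNA2, KPNA5, KPNA7, NUP107, NUP205, NUP210L, NUP35, NUP42, NUP85 and NUP93. A peak in replicate 1 only was found in 5 of 50 (10%, beside 5.68%), in IPO4, IPO9, NUP37, NUP54 and NUP62CL. A peak in replicate 2 only was found in 2 of 50 (4%, beside 7.43%), in IPO11 and RAN. Without a peak, binding was not detectable at this depth, which does not show that these RNAs were unbound.

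The replicates recovered these RNAs unequally, with more peaks in replicate 1. Replicate 1 gave 164 exonic peaks on the set and replicate 2 gave 111, a ratio of 1.48, whereas all protein-coding genes gave 18681 and 19014, a ratio of 0.982. More peaks in replicate 1 than in replicate 2 were found in 24 of 39 genes with any peak (61.5%), beside 33.4% of all such genes. In replicate 1, 83 of 164 peaks overlapped the other list (50.6%, 43.0 to 58.2), and in replicate 2, 82 of 111 did (73.9%, 65.0 to 81.2). Over all protein-coding genes these shares were 62.3% and 61.4%.

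The imbalance differed by GC content. Where the window around the summit had under 40% GC, the set had 72 peaks in replicate 1 and 33 in replicate 2, and all genes had 4634 and 2569. From 40% to below 60%, the set had 72 and 42, a ratio of 1.71, and all genes had 9168 and 8204, a ratio of 1.12. At 60% GC or more, the set had 20 and 36, and all genes had 4879 and 8241. Of the peaks under 40% GC, 30.6% of those in replicate 1 and 75.8% of those in replicate 2 overlapped the other list, beside 38.8% and 68.3% over all genes. The part of GC content in the excess of replicate 1 was not tested, and the limits of 40% and 60% were chosen after the values were seen.

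**Figure D3:**
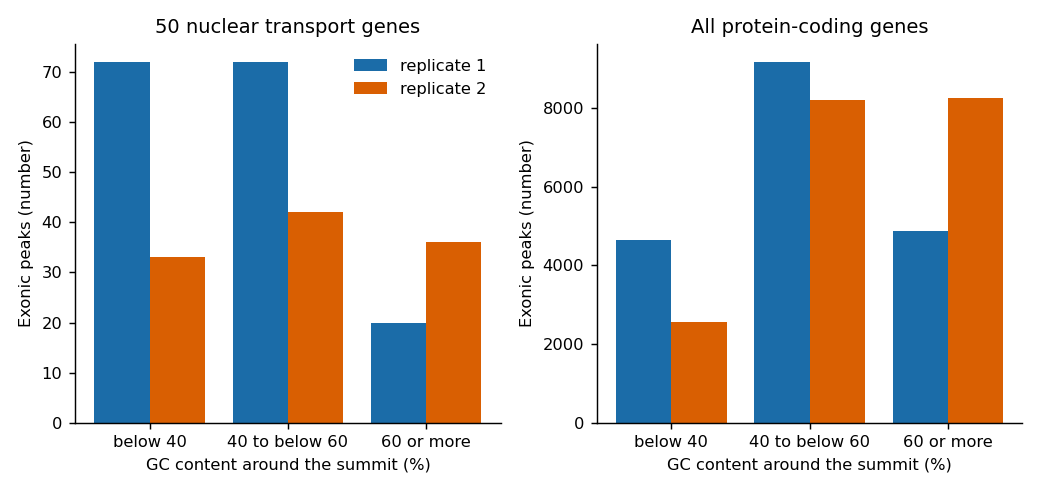
Number of exonic peaks (y axis) by GC content of the window that extends 50 nt up- and downstream from the summit (x axis, percent), for the 50 nuclear transport genes at left and all protein-coding genes at right, with replicate 1 in blue and replicate 2 in orange. On the 50 genes, replicate 1 has 72 peaks against 33 below 40% GC and 20 against 36 at 60% or more, and the same order holds for all genes.

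The summits lay in coding sequence, UTRs and introns. A summit in the coding sequence was found for 27.4% of the peaks in replicate 1 and 24.3% in replicate 2 (mean 25.9% ± 2.20, SD, n = 2), beside 34.1% and 34.0% over all genes. The 3′ UTR held 19.5% and 17.1%, beside 26.4% and 20.9%. The 5′ UTR held 7.32% in replicate 1 and 16.2% in replicate 2, beside 7.89% and 13.7%. An intronic summit, in a peak that reaches an exon, was the most frequent class, at 40.2% (33.0 to 47.9) and 33.3% (25.3 to 42.5), beside 24.9% and 22.4% of all exonic peaks. The intervals cover counting error only and treat peaks of 1 gene as independent, which they are not, and no test of the difference was made. Where a peak touched 1 canonical exon, that exon had a median length of 227 and 214 nt in the set. Over all genes it was 518 and 412 nt. The part of exon length in the intronic shares was not tested.

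Nearly all intronic summits sat on the upstream side of an exon. In replicate 1, 64 of 66 lay before the nearest exon, and in replicate 2, 35 of 37 did. Over all protein-coding genes, 4416 of 4650 and 4010 of 4267 did. Within 150 nt before that exon lay 60 of 66 and 35 of 37, beside 89.6% and 89.4% over all genes. Only peaks that touch an exon were kept, and those of the set had median widths of 324.5 and 322 bp. This limits how far a summit can lie from an exon. The share of summits on the upstream side hardly differed between the set and all protein-coding genes. Why summits favoured that side, and whether IGF2BP3 was bound there, was not tested. Of the intronic summits of the set, 22 of 66 in replicate 1 (33.3%) and 27 of 37 in replicate 2 (73.0%) belonged to a peak that overlapped the other list, beside 50.6% and 54.7% over all genes. Their windows were poor in GC, with medians of 32.7% and 36.6%. A stop codon was covered by 12.8% and 10.8% of the peaks of the set, beside 18.9% and 17% over all genes, and a start codon by 8.54% and 12.6%, beside 12.4% and 17.2%.

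**Figure D4:**
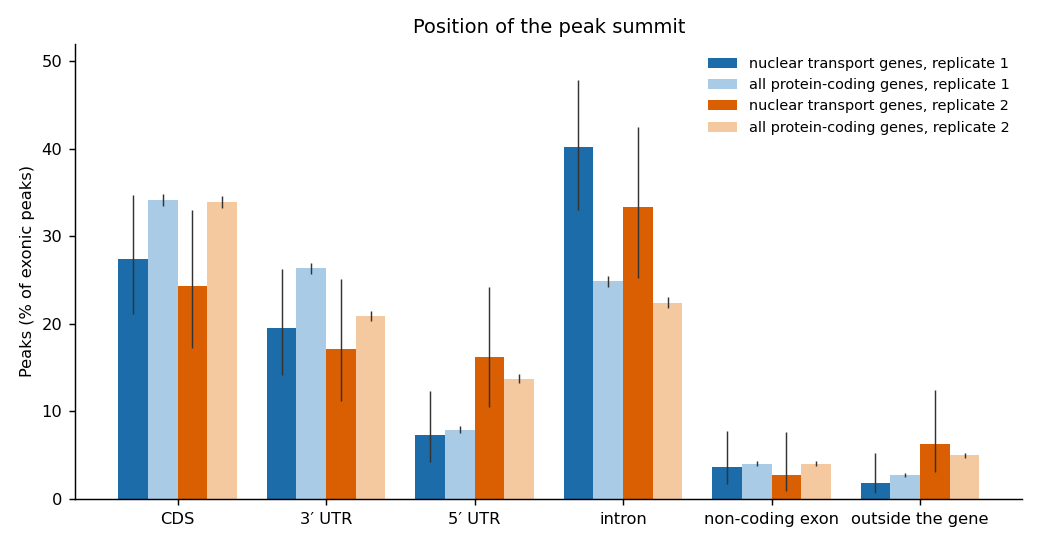
Share of exonic peaks (y axis, percent) whose summit lies in each kind of region (x axis), for the 50 nuclear transport genes in dark and all protein-coding genes in light colours, with replicate 1 in blue and replicate 2 in orange and Wilson 95% intervals as lines. Intronic summits make up 40.2% and 33.3% of the peaks on the 50 genes, above the light bars beside them.

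The 84 overlapping pairs had a median distance of 33.5 bp between summits (up to 839 bp, in NUP62), and 50 of 84 were within 50 bp (59.5%, beside 54.5% of 11934 pairs in all genes). Their folds followed each other with a Spearman's rho of 0.614 across the 84 pairs, beside 0.662 in all genes, a description in which pairs of 1 gene share its RNA. The median ratio of replicate 2 to replicate 1 was 1.03. The 10 pairs with both summits in the 5′ UTR had median folds of 8.54 and 11.6, and 7 of 10 were higher in replicate 2, beside 78.2% of such pairs in all genes. The 17 pairs in the 3′ UTR had lower median folds, 5.50 and 6.15. Over all exonic peaks of the set, the median summit held 35 reads in the 3′ UTR and 16 in the 5′ UTR in replicate 1, and 27 and 24 in replicate 2.

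**Figure D5:**
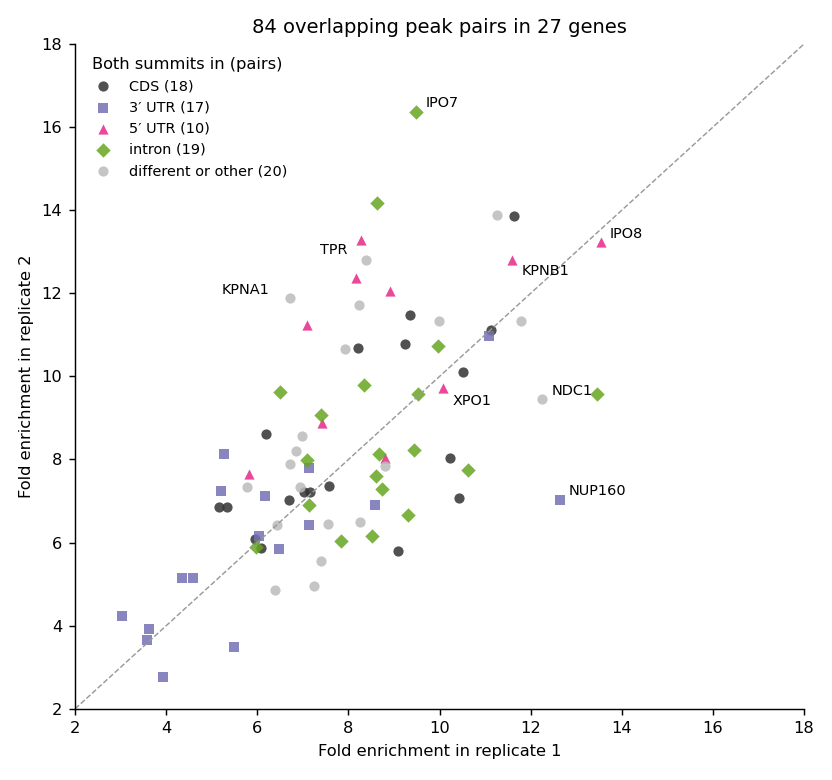
Fold enrichment in replicate 1 (x axis) and replicate 2 (y axis) of the 84 overlapping peak pairs in 27 nuclear transport genes, 1 point per pair, by the region of both summits, with the dashed line marking equal folds. The pairs labelled IPO7, TPR and KPNA1 lie above the line, NUP160 and NDC1 lie below it, and 3′ UTR pairs fill the lower left.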

How the data were processed

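Cells were UV-crosslinked and IGF2BP3 was immunoprecipitated, and 1 narrowPeak list was deposited per replicate. The submitters' processing notes name fastp, HISAT2, MACS2 and hg38, whereas the study's methods name Bowtie and Piranha. The column layout is that of MACS2. The methods give settings for Bowtie and Piranha, whereas tool versions and MACS2 settings were not given in the sources used here. The deposited values were, per peak, a fold ratio of the summit over local background, −log10 p and −log10 q values, and a score that was not used. No read counts were used. The summit pileup was recovered from the fold and the p-value for every peak, to within 0.01 of the deposited −log10 p.

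Members were found by symbol in GENCODE 44. A peak overlapped from 1 bp. Summit classes were assigned in the order coding sequence, 3′ UTR, 5′ UTR, non-coding exon, intron. The members and gene lists were chosen with earlier results of these data known. The genes described in full were the 12 whose best pair had the highest lower within-list percentile of fold, those with most peaks, those with peaks in 1 list or none, RANBP2, POM121, KPNA2 and RAN, and the extremes of the fold ratio. The remaining genes were named after their values were seen. No test was possible with 1 group and no control. Intervals (Wilson, 95%) cover counting error only, and reads are not independent molecules. Genome sequence came from hg38. Overlap and pileup recovery were tested on simulated data. Python 3.11.15, pandas 2.3.3 and scipy 1.17.1 were used.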

Additional observations from a re-analysis of the deposited data

How the results depend on the processing

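Of 71 values recomputed under 9 settings for 12 results, 52 stayed within the replicate spread (or, for counts, within 1.5 times) and 19 moved by more. The replicate spread was 1 SD of the 2 replicates, which was 16.5 percentage points for overlap but 0.0971 for TGGAC. The tally therefore does not measure all results on 1 scale, and small shifts of TGGAC count as moves. With the summit required in an exon, 27 genes had a peak in both replicates and 23 overlapping ones, and the mean shares were 43.8% for coding sequence, 31% for the 3′ UTR, 19.7% for the 5′ UTR, 19.0% for stop codons, 14.2% for start codons and 7.94% for TGGAC, since intronic summits leave the total. With canonical transcripts only, introns held 43.0%, stop codons were covered by 9.04% and TGGAC stood in 9.21%. Without peaks on exons of other genes, coding sequence held 28.2% and TGGAC 10.1%. TGGAC stood in 8.92% at a −log10 q of at least 5 and in 9.32% with summit 31-mers that occur once. With summits within 50 bp, 37.8% of the peaks overlapped. With the middle of the peak in place of its summit, coding sequence held 17.7%, introns 44.7% and TGGAC 8.92%. With 25 nt to each side, GGAC stood in 10.3% and TGGAC in 3.79%.

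With 1 replicate left out, the values ranged from 50.6% to 73.9% for overlap, 24.3% to 27.4% for coding sequence, 17.1% to 19.5% for the 3′ UTR, 7.32% to 16.2% for the 5′ UTR, 33.3% to 40.2% for introns, 7.14 to 7.70 for the median fold, 10.8% to 12.8% for stop codons, 8.54% to 12.6% for start codons, 19.8% to 23.2% for GGAC and 9.01% to 9.15% for TGGAC. The counts of genes in both replicates need both lists. No paired analysis was possible because both libraries belong to 1 group.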

Other observations

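A few peaks lay inside nuclear transport genes without touching an exon of them, 3 in each list. A pair of them sat in an intron of KPNA4, on the small Cajal body RNA gene SCARNA7, with a fold of 13.6 and 43 reads in replicate 1 and 18.7 and 71 reads in replicate 2, above the best exonic pair of KPNA4. An overlapping pair in IPO11, at folds of 16 and 8.64, lay on the processed pseudogene CKS1BP3, and the 31 bases at its summits occur 5 and 2 times in the genome. The other two were a peak of NDC1 in replicate 1 (6.23) and a peak of KPNA1 on an exon of WDR5B-DT in replicate 2 (8.35).

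POM121C, the near-identical copy of POM121, carried 7 exonic peaks in replicate 1 and 6 in replicate 2, with 5 overlapping pairs, against 5 and 3 with 2 overlapping pairs for POM121.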
